A study of Sus scrofa with 8 samples.

Results

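The genes described here encode 9 components of the complement cascade: C3, C1R, C1S, C2, CFB, CFD, C5, C6 and C7. They were followed in cultured islets of neonatal pigs by every probe set of the porcine Affymetrix GeneChip whose annotation gives exactly 1 of these symbols. A probe set is a group of short DNA probes on this chip whose brightness is reduced to a single number, the intensity. The search found 10 probe sets among 23999 that are not controls, and these covered 8 of the 9 genes. C6 had no such probe set and was not analysed here. CFB and C7 were each read by a pair of probe sets and the other genes by 1 each.

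Islets were isolated from 4 male Duroc/Large white cross pigs labelled 7 days old and 4 labelled 3 days old, and RNA from each pig went onto an array of its own. All 8 preparations shared the same collagenase digestion and 7 days of culture, so both groups are cultured, mixed preparations and not islets fresh from the animal. Age was the only factor that the labels vary. The comparison asks whether complement transcripts in such preparations differ with the age of the donor, as part of a study of islet immunogenicity.

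Complement is a set of plasma proteins that mark and damage foreign cells. In the classical pathway the proteases C1R and C1S are carried by C1q on bound antibody and cleave C4 and C2. In the alternative pathway CFD, the protease also called adipsin, cleaves CFB that is bound to activated C3. Both routes lead to cleavage of C3, after which C5, C6 and C7 begin the pore of the terminal pathway. Most of these proteins come from the liver, but many other cells make some of them.

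The preparations carried the defining hormone transcripts of islets. INS averaged 23694 ± 4216 in arrays labelled 7-day-old, against 24649 ± 2214 in those labelled 3-day-old (intensity, SD, n = 4 each). GCG averaged 26221 ± 5974 in arrays labelled 7-day-old, against 29346 ± 1370 in those labelled 3-day-old. Exocrine signal was present too, with acinar CPA1 at 22338 ± 5319 in arrays labelled 7-day-old, against 24089 ± 920 in those labelled 3-day-old. Acinar markers varied in brightness, since CELA2A averaged 4.83 ± 1.43 with the 7-day-old label, against 21.95 ± 11.02 with the 3-day-old label. ALB, a defining transcript of liver cells, was dim, at 24.5 ± 19.3 in arrays labelled 7-day-old, against 38.7 ± 20.2 in those labelled 3-day-old. It reached the 20th percentile of its array, which lay between 26.4 and 31.3, in 4 of the 8. That percentile is used below as a mark of low signal, since detection calls were not used here. Not every liver-type transcript was dim, since APOA1 averaged 1678 ± 332 in arrays labelled 7-day-old, against 3709 ± 464 in those labelled 3-day-old. The summed intensity of 10 liver-type genes was 15313 to 17532 with the 7-day-old label, against 11367 to 16745 with the 3-day-old label. The median intensity of an array was 171.6 to 178.5, and with 4 arrays a label the precision is limited.

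Transcripts of C3, C1R, CFB and CFD were lower in arrays labelled 7-day-old than in arrays labelled 3-day-old, by 1.91-fold for C3 to 2.64-fold for C1R. C5 showed no difference that passed the test, with a log2 difference of -0.10. These directions follow the deposited labels and run opposite to those of the study, which gives complement genes, C1R among them, as higher in the older pigs. The opposition is not particular to complement, since THBD, DCN, PECAM1, RGS5, NEUROD1 and TTR, which the study also lists, ran opposite to it as well. Which set of labels is exchanged is not settled by the sources used here, so every direction below is that of the deposited labels. A log2 difference is the mean of the arrays labelled 7-day-old minus the mean of those labelled 3-day-old.

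The test was limma's moderated test across all 21574 probe sets that reached the 20th percentile in at least 1 array, with Benjamini-Hochberg adjustment over them. By it 5 of the 9 complement probe sets tested were lower at an adjusted p under 0.05 and 0 were higher, where 5.47% of all probe sets tested were lower and 5.21% higher. With no adjustment 6 of the 9 had a limma p under 0.05, as did 6017 of all 21574 probe sets tested. In those same 5 probe sets the 4 values labelled 7-day-old all lay below the 4 labelled 3-day-old, as they did in 10.3% of all probe sets tested. C2 and one C7 probe set entered the test only through arrays labelled 3-day-old, and the other C7 probe set did not enter it.

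C3 (NCBI Gene 397072) is the protein on which all pathways converge. Its intensities were 7739, 9432, 9520 and 9914 in arrays labelled 7-day-old, against 17548, 16708, 17956 and 17304 in arrays labelled 3-day-old. The groups lay far apart, and the values labelled 3-day-old were tightly spaced, with an SD of 0.04 on the log2 scale against 0.16 in arrays labelled 7-day-old. The log2 difference of C3 was -0.93 (standard error 0.099, 95% interval -1.16 to -0.70, adjusted p = 0.00538 from limma). In bulk RNA, fewer cells of a type and less RNA per cell cannot be told apart, which holds for this and each later result.

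**Figure D1:**
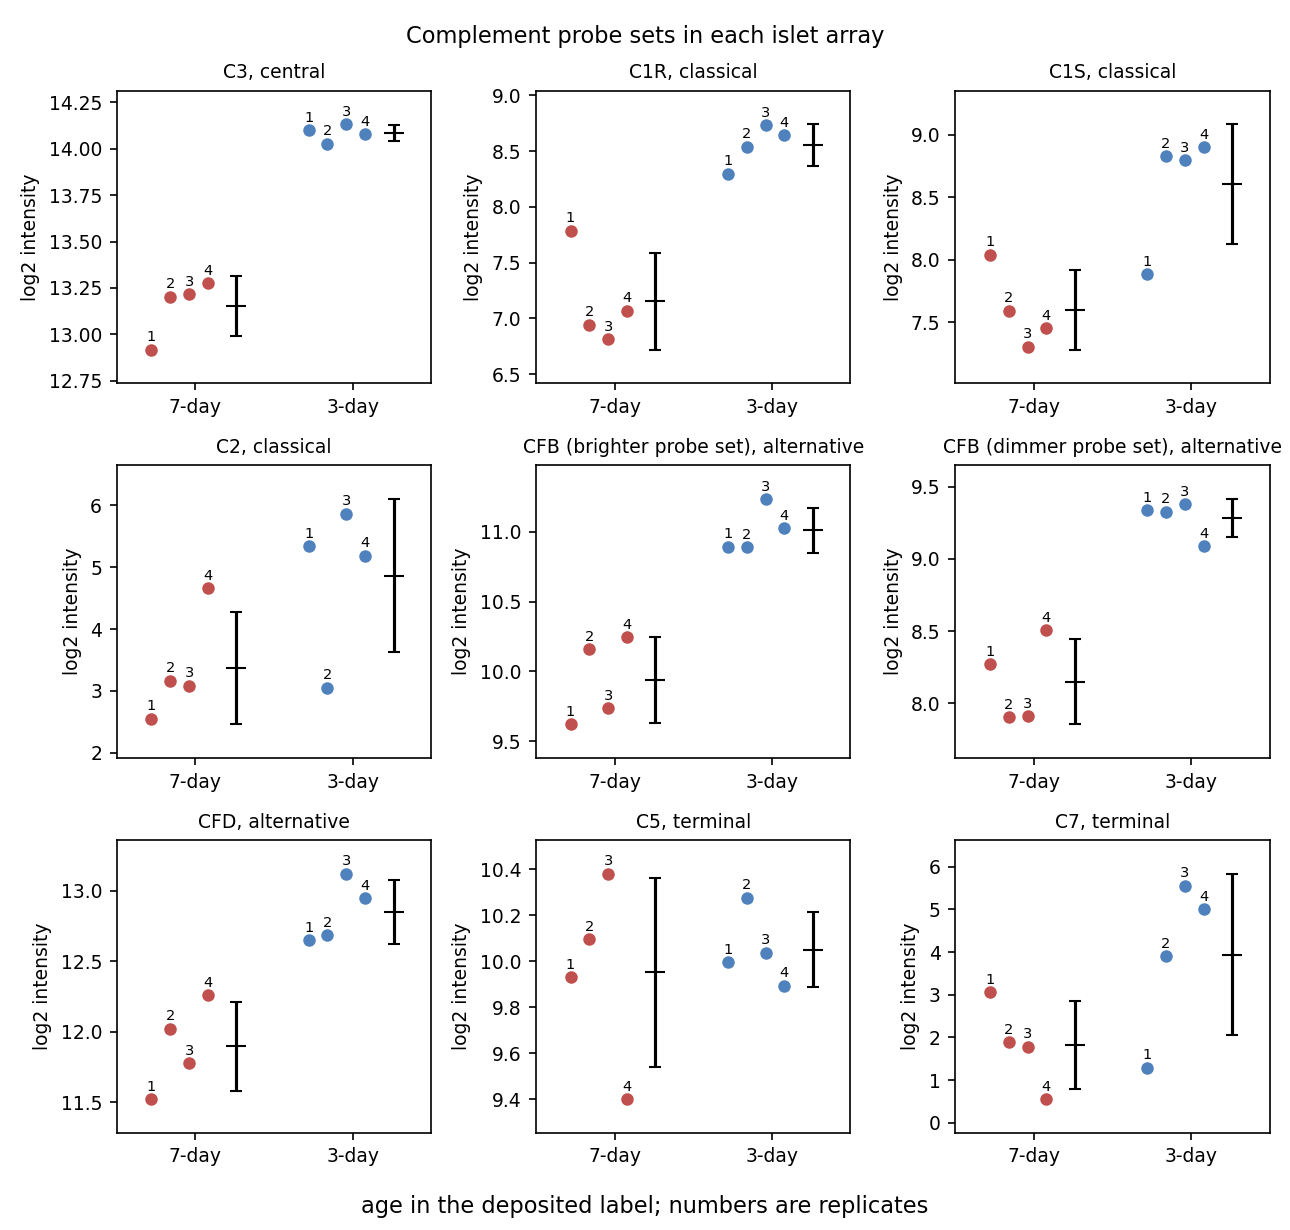
The log2 intensity (vertical axis, own scale in each panel) of the 9 complement probe sets tested, in each array by deposited label, with replicate numbers beside the points and the mean ± SD of 4 arrays as a bar. In C3, C1R, both probe sets of CFB, and CFD the points labelled 7-day-old all lie below those labelled 3-day-old, while in C1S, C2, C5 and C7 the labels overlap.

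Of the classical components, C1R had the clearest difference. C1R (NCBI Gene 445464) is the protease that activates C1S, and its probe set read 221, 123, 113 and 134 in arrays labelled 7-day-old, against 315, 372, 425 and 400 in arrays labelled 3-day-old. The groups did not overlap, and 7-day-old replicate 1 was the highest of its label while 3-day-old replicate 1 was the lowest of its own. The log2 difference was -1.40 (standard error 0.220, 95% interval -1.91 to -0.89, adjusted p = 0.0113 from limma).

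C1S (NCBI Gene 397274), the protease that cleaves C4 and C2, differed by about as much as C3 on average but did not pass. Its intensities were 263, 193, 158 and 176 in arrays labelled 7-day-old, against 237, 454, 444 and 478 in arrays labelled 3-day-old. The overlap came from replicate 1 of each label, the highest of the arrays labelled 7-day-old and the lowest by far of those labelled 3-day-old. The log2 difference was -1.0 (95% interval -1.62 to -0.39, adjusted p = 0.052 from limma). Without 3-day-old replicate 1 it was -1.24 and passed (adjusted p = 0.0187 from limma).

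C2 (NCBI Gene 448981), the substrate of C1S that supplies the protease of the classical C3 convertase, gave little signal. It read 5.86, 8.97, 8.47 and 25.4 in arrays labelled 7-day-old, against 40.6, 8.29, 58.4 and 36.4 in arrays labelled 3-day-old. It reached the 20th percentile in 0 of the arrays labelled 7-day-old and in 3 of those labelled 3-day-old, so the size of its log2 difference, -1.50 (95% interval -3.09 to 0.10, adjusted p = 0.205 from limma), is uncertain.

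Both alternative pathway components were lower in arrays labelled 7-day-old. CFB (NCBI Gene 100124383), factor B, supplies the protease of the alternative C3 convertase and is the counterpart of C2. Its brighter probe set read 787, 1141, 853 and 1215 in arrays labelled 7-day-old, against 1905, 1902, 2411 and 2087 in arrays labelled 3-day-old. Its dimmer probe set read 309, 240, 241 and 363 in arrays labelled 7-day-old, against 647, 642, 665 and 545 in arrays labelled 3-day-old. The labels did not overlap in either. The log2 differences of the CFB probe sets were -1.07 (standard error 0.168, adjusted p = 0.0113) and -1.13 (standard error 0.158, adjusted p = 0.00809, both from limma), so the 2 readings of the gene differed by less than their standard errors.

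CFD (NCBI Gene 396877), the protease that cleaves factor B, had a difference of similar size. It read 2938, 4155, 3513 and 4908 in arrays labelled 7-day-old, against 6421, 6580, 8918 and 7918 in arrays labelled 3-day-old. Every value labelled 7-day-old lay below every value labelled 3-day-old, with a log2 difference of -0.96 (standard error 0.186, 95% interval -1.39 to -0.52, adjusted p = 0.0212 from limma). The CFD call was lost when 3-day-old replicate 3 (adjusted p = 0.0572) or 7-day-old replicate 2 was left out (adjusted p = 0.0507, both from limma). CFD is a well-known product of fat cells. The fat cell markers ADIPOQ and FABP4 reached the 20th percentile in 4 and 2 of the 8 arrays, and the summed intensity of 4 fat cell markers was 296 to 563 in arrays labelled 7-day-old, against 355 to 907 in those labelled 3-day-old, so that the labels overlapped. LPL made up most of that sum in every array, so the sum says little about the other fat cell markers. A fat cell source of CFD was not tested.

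The terminal components did not share this difference in a way that the arrays could show. C5 (NCBI Gene 414437), whose cleavage starts the terminal pathway, read 976, 1095, 1332 and 676 in arrays labelled 7-day-old, against 1021, 1241, 1050 and 952 in arrays labelled 3-day-old. The labels were interleaved, and 7-day-old replicates 3 and 4 were the highest and lowest of all 8 arrays. The log2 difference of C5 was -0.10 (95% interval -0.58 to 0.38, adjusted p = 0.801 from limma). That interval does not reach those of C3 (-1.16 to -0.70), C1R and both CFB probe sets. It overlaps those of CFD (-1.39 to -0.52), C1S (-1.62 to -0.39), C2 and C7. Separate intervals do not test a difference between genes read on the same arrays, and no pair passed adjustment in the test of ratios given below.

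C7 (NCBI Gene 397526), which anchors the forming pore to the membrane, was close to background on both of its probe sets. The probe set that was tested read 8.30, 3.72, 3.44 and 1.47 in arrays labelled 7-day-old, against 2.45, 15.0, 47.1 and 32.1 in arrays labelled 3-day-old, and reached the 20th percentile in 2 arrays, both labelled 3-day-old. The other read 1.71, 1.81, 22.4 and 13.1 in arrays labelled 7-day-old, against 3.13, 2.10, 4.09 and 2.61 in arrays labelled 3-day-old, and reached it in 0. The C7 probe sets thus pointed opposite ways, with log2 differences of -2.12 (95% interval -4.35 to 0.11, adjusted p = 0.199 from limma) and 0.93 (not tested). The tested one passed only without 3-day-old replicate 1 (log2 difference -3.00, adjusted p = 0.0421 from limma), and since it entered the test through arrays labelled 3-day-old alone, that call is no support for a difference.

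Set side by side, the alternative components and C3 were lower in every probe set, while the classical and terminal classes held genes near background. The median log2 difference of the probe sets tested was -1.40 for the 3 classical, -1.07 for the 3 alternative and -1.11 for the 2 terminal probe sets, beside -0.93 for C3 and -0.001 over all probe sets tested. The classical median is that of C1R alone, and the terminal one averages a gene with a clear signal and no called difference, C5, with one near background, C7. With no filter or a stricter one the terminal median was -0.10, the value of C5. Counted by calls, 1 of 3 classical, 3 of 3 alternative and 0 of 2 terminal probe sets were lower, as was the C3 probe set.

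Whether single members differed from each other in this respect was tested for the 6 genes at or above the 20th percentile in all arrays, C3, C1R, C1S, CFB, CFD and C5, by the change in the ratio of their intensities. Of the 15 pairs, only C1R against C5 had ratios that did not overlap between the labels, and the log2 ratio of C1R to C5 differed by -1.30 (exact permutation test, two-sided, p = 0.0286, the smallest that 4 arrays against 4 allow, or 0.214 adjusted over the pairs). The log2 ratios of C3, C1S, CFB and CFD to C5 differed by -0.97 to -0.83, with exact permutation p of 0.0571 to 0.0857. Among C3, C1R, C1S, CFB and CFD the differences between genes were at most 0.47 in size (C3 against C1R, exact permutation p = 0.143), and C1R against C1S had -0.40 (exact permutation p = 0.0857). No pair passed after adjustment over the 15 pairs. With 0.0286 as the smallest p, a separation of C5 from every other gene could not by itself have passed that adjustment. The test therefore cannot decide whether terminal components separate from classical or alternative ones.

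**Figure D2:**
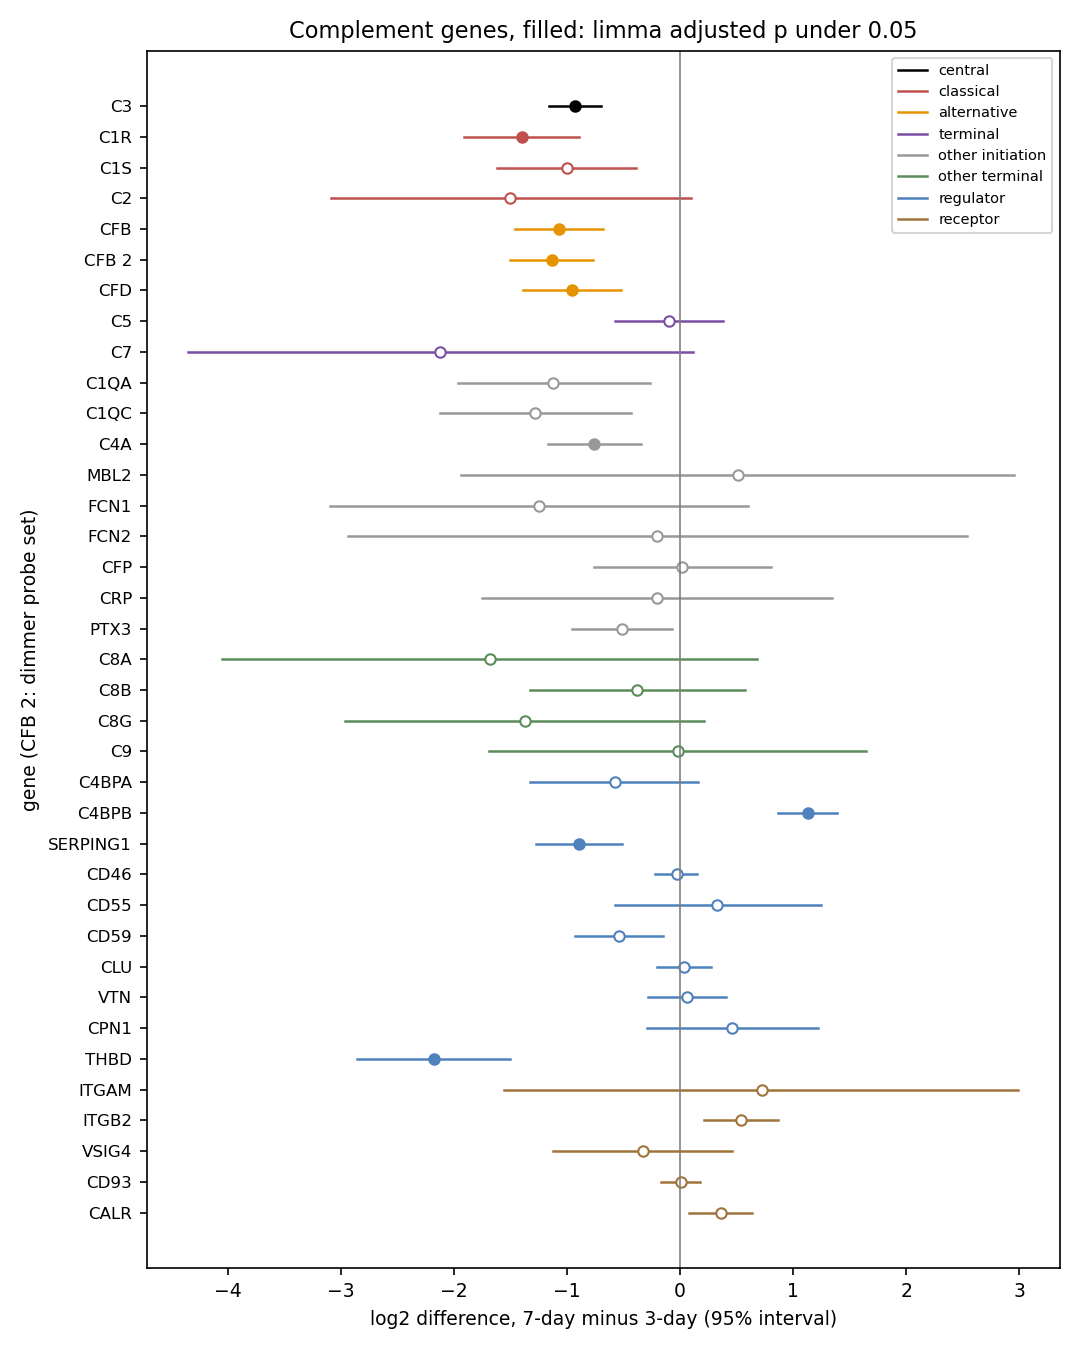
The log2 difference (horizontal axis, mean labelled 7-day-old minus mean labelled 3-day-old) with its 95% interval from limma for each complement gene tested, coloured by class, with filled points where the adjusted p was under 0.05. C3, C1R, CFB and CFD lie between -1.40 and -0.93, C5 at -0.10, and C4BPB on the other side at 1.13.

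The arrays of 1 label also differed among themselves. For C1R, C1S, C3, CFD and the brighter CFB probe set, 2 patterns are described. C1R and C1S were both highest in replicate 1 among arrays labelled 7-day-old and both lowest in replicate 1 among arrays labelled 3-day-old. Their deviations from the mean of their label correlated with r = 0.776 over the 8 arrays. CFD and the brighter CFB probe set were instead lowest in replicate 1 and highest in replicate 4 among arrays labelled 7-day-old, and highest in replicate 3 among those labelled 3-day-old, with r = 0.955. C3 followed CFD (r = 0.776) and not C1R (r = -0.791). C5 followed neither CFD (r = -0.525) nor C1R (r = -0.234). These are descriptions over 8 arrays that share 1 scaling. The dimmer CFB probe set followed its own partner only loosely (r = 0.213), so the likeness of CFB and CFD rests on 1 probe set of CFB. In the pig genome assembly Sscrofa11.1, C1R and C1S are direct neighbours, as are C2 and CFB, with 0 protein-coding genes between them, whereas CFB and CFD are on different chromosomes.

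**Figure D3:**
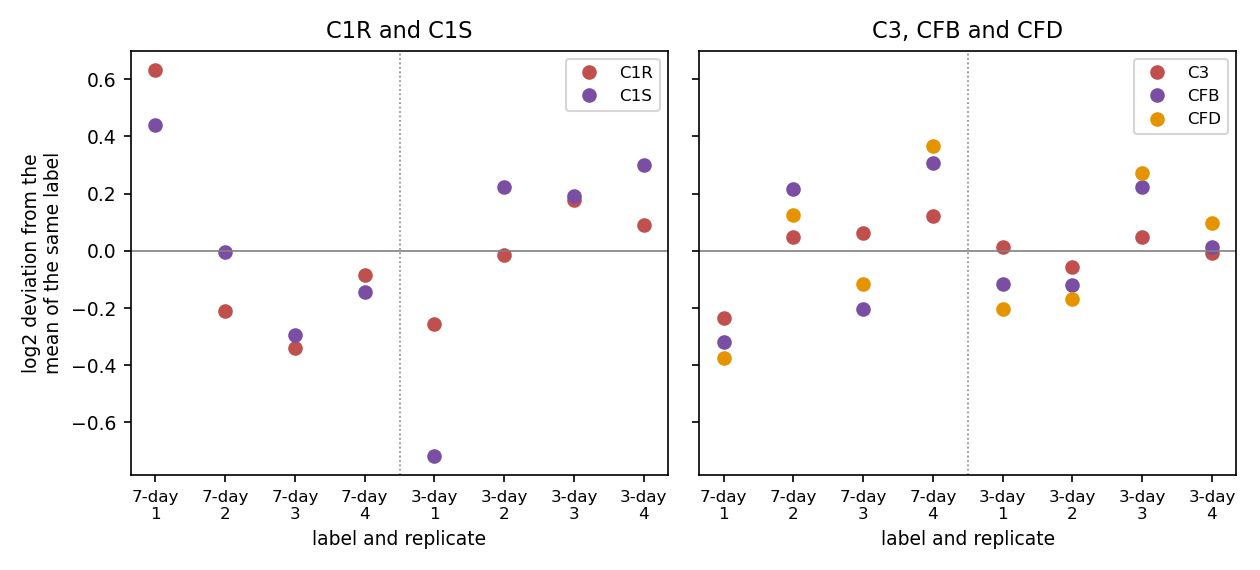
The log2 deviation of each array from the mean of its own label (vertical axis) for C1R and C1S (left) and for C3, the brighter probe set of CFB, and CFD (right), by label and replicate (horizontal axis). C1R and C1S are highest in 7-day-old replicate 1, where C3, CFB and CFD are lowest.

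The genes with the most similar profile over all 8 arrays, by Pearson r of log2 intensity and including the difference between the labels, were as follows. CFB and CFD were each other's closest gene (r = 0.989). Next to CFB came the growth factor receptor FGFR2 at 0.984 and ENPP1 at 0.981, and next to CFD came RDH14 at 0.983 and KNG1, kininogen, at 0.978. The genes closest to C1S were COL6A3, a chain of collagen VI, at r = 0.987, the matrix proteoglycan BGN at 0.979 and the endothelial and stromal receptor ENG at 0.975. Those closest to C1R were MED11, at 0.987, the cytokine TGFB1 at 0.986 and TMEM45A at 0.983. C3 was closest to the RNA-binding protein RBPMS and the receptor TNFRSF21, both at 0.989, and the protease inhibitor SPINT1 at 0.988. For C2 and C7, whose values were near background, the closest were SERTAD2 at 0.971, the proteoglycan VCAN at 0.970 and PAPSS1 at 0.968, and SYN2 at 0.967, the matrix protein FN1 at 0.959 and MECR at 0.956. C5 had lower values, with MYOC at 0.933, PLK2 at 0.915 and TCEA1 at 0.909.

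The remaining complement genes on the chip gave few calls. For these and the later gene lists, the shares over all probe sets tested were 5.47% lower and 5.21% higher. Of 9 measured genes that start or support activation, 1 was lower and 0 were higher. It was C4A, the component cleaved by C1S, at 161 ± 19.2 in arrays labelled 7-day-old, against 275 ± 56.5 in those labelled 3-day-old (SD, n = 4 each, log2 difference -0.76, adjusted p = 0.0365 from limma). This call was lost when any array but 3-day-old replicate 1 was left out (adjusted p 0.0628 to 0.0916) and by the methods' t-test (adjusted p = 0.057). C1QC and C1QA, chains of the recognition protein that carries C1R and C1S, had log2 differences of -1.28 and -1.12 (adjusted p = 0.0658 and 0.0934 from limma). The 4 other terminal genes, C8A, C8B, C8G and C9, had log2 differences of -1.68 to -0.02, with 0 calls in limma and 0 at an unadjusted p under 0.05.

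Among 10 regulators, 2 were lower and 1 was higher, with a median log2 difference of 0.00. C4BPB, a chain of the C4b-binding protein, was higher, at 1241 ± 78.6 in arrays labelled 7-day-old, against 570 ± 71.8 in those labelled 3-day-old (log2 difference 1.13, adjusted p = 0.0044 from limma). SERPING1, the inhibitor of C1R and C1S, averaged 814 ± 77.0 in arrays labelled 7-day-old, against 1528 ± 321 in those labelled 3-day-old (log2 difference -0.89, adjusted p = 0.0181). The SERPING1 call was lost without 3-day-old replicate 2 (adjusted p = 0.053) or 7-day-old replicate 1 (adjusted p = 0.0511). THBD, thrombomodulin, which is better known for its part in coagulation, was the other regulator that was lower (log2 difference -2.18, adjusted p = 0.00739). With the intensity trend, or without 3-day-old replicate 4, 3 regulators were lower. The membrane regulators CD46 and CD59 had -0.03 (adjusted p = 0.839) and -0.54 (adjusted p = 0.0848). Of 5 receptors tested 0 passed in limma, with 2 at an unadjusted p under 0.05, as were 6017 of all 21574 probe sets tested. ITGB2, the shared chain of complement receptors CR3 and CR4, had 0.54 (adjusted p = 0.0512 from limma). Receptors called higher numbered 1 without 3-day-old replicate 1, with an intensity trend and robust variances, after median centring or with an offset of 16 before log2, and 2 of 3 with a stricter filter (50th percentile in 4 arrays or more).

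Among genes known to induce complement transcripts, or to carry or restrain that signal, calls ran in the direction of the components. Of 16 such genes tested, 10 were lower in arrays labelled 7-day-old and 0 were higher, with a median log2 difference of -0.64. Over all probe sets tested 5.47% were lower and 5.21% higher. The cytokine LIF had -1.44 (adjusted p = 0.0146), IL1A -1.08 (adjusted p = 0.0199) and CEBPB, a transcription factor of the acute phase response, -0.83 (adjusted p = 0.0125). TNF had -2.80 (adjusted p = 0.0422) but reached the 20th percentile in only 5 arrays, and IL6 had -0.88 (adjusted p = 0.114). The interferon gamma receptor chain IFNGR1 had -0.68 (adjusted p = 0.0105). NFKBIA, an inhibitor of the transcription factor NF-kappa B, also had -0.68 (adjusted p = 0.0199 from limma), so the lower genes include a restraint on the signal. The number lower was 5 to 9 when 1 array was left out, with 5 in the absence of replicates 2 or 3 labelled 3-day-old or of replicate 2 labelled 7-day-old. LIF, CEBPB and IFNGR1 passed in each of these, while IL1A did not pass without any of 4 arrays and TNF without any of 7. C1R, LIF and IL1A are among the genes that the study lists from these same arrays, so their direction here is not independent evidence.

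Markers of stromal and vascular cells were lower alongside the complement genes. The sums of the duct and leukocyte lists, given below, were also lower without overlap. Macrophage, endocrine, fat cell, acinar and liver-type lists had overlapping sums. Of 14 fibroblast and stellate cell markers, 6 were lower and 0 higher, and their summed intensity was 44771 to 50730 in arrays labelled 7-day-old, against 60073 to 79304 in those labelled 3-day-old. VIM, SPARC and FN1 made up most of that sum, and none of them was called (adjusted p = 0.0637, 0.0594 and 0.103 from limma). The summed intensity was 1093 to 1370 in arrays labelled 7-day-old, against 2091 to 2569 in those labelled 3-day-old for 11 endothelial markers, of which 4 were lower. For 7 pericyte and smooth muscle markers, of which 3 were lower, it was 1925 to 2332 in arrays labelled 7-day-old, against 3162 to 4165 in those labelled 3-day-old. The labels did not overlap in any of these sums. The endothelial marker TIE1, 1 of the 4 called lower, reached the 20th percentile in 0 arrays labelled 7-day-old and in 4 labelled 3-day-old. It entered the test through arrays labelled 3-day-old alone, so that call is no support for a difference. The fibroblast list fell to 3 lower markers without any 1 array other than 3-day-old replicate 1, and gave 9 without that array, the one in which C1R and C1S were lowest for its label. It gave 10 of the 12 tested with the stricter filter and 11 of 14 with the intensity trend. With 1 array left out, the endothelial list had 2 to 4 lower, with 2 without 7-day-old replicate 2, and the pericyte and smooth muscle list 3 each time. The endothelial list had 6 lower with the intensity trend or the offset of 16.

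Epithelial and blood cell markers gave fewer calls or overlapping sums. For 9 duct markers, of which 2 were lower, the sums were 60817 to 66403 in arrays labelled 7-day-old, against 66910 to 75088 in those labelled 3-day-old, without overlap. The duct list had a median log2 difference of -0.24, with 9 of 9 markers below 0. The macrophage and dendritic list had a median log2 difference of -0.86, with 10 of 13 markers below 0. The fibroblast and stellate list had -0.73, with 13 of 14 below 0. The sums of the 13 macrophage and dendritic markers, 2 of them lower, were 1094 to 2079 (7-day-old label) and 2000 to 4918 (3-day-old label), and overlapped. For 11 other leukocyte markers, 1 of them lower, they were 1054 to 1247 with the 7-day-old label, against 1463 to 1648 with the 3-day-old label, but LCP1 and CORO1A, which bind actin and are not specific to lymphocytes, made up most of the sum. LCP1 averaged 657 ± 80.0 in arrays labelled 7-day-old, against 989 ± 120 in those labelled 3-day-old, and CORO1A averaged 214 ± 18.4 with the 7-day-old label, against 268 ± 16.2 with the 3-day-old label. PTPRC, the common leukocyte antigen, and the lymphocyte markers CD2, CD4 and CD79B reached the 20th percentile in 1 array each, and CD3D and CD79B had log2 differences of 0.90 and 0.56 (adjusted p = 0.518 and 0.72), so the sum does not describe lymphocytes. Of 12 endocrine markers 5 were higher and 0 lower, with overlapping sums, of 7 acinar markers 1 was lower, and of 10 liver-type genes 2 were higher and 1 lower. Most of these counts moved when 1 array was left out. Endocrine markers higher numbered 3 to 5, with 3 without replicates 1 or 3 labelled 3-day-old or 1 or 2 labelled 7-day-old. Liver-type genes higher numbered 1 without replicate 4 labelled 3-day-old or replicate 1 labelled 7-day-old and 0 without any of the others, without a filter and by the methods' t-test. Macrophage markers lower numbered 0 without replicate 3 labelled 3-day-old or replicate 2 labelled 7-day-old, and remained at 2 only without replicate 4 of either label. LY86, 1 of those 2 markers, reached the 20th percentile in 0 arrays labelled 7-day-old and in 2 labelled 3-day-old. Its call is therefore no support for a difference. The leukocyte call held only without replicate 4 labelled 3-day-old or replicate 2 labelled 7-day-old. Duct markers lower numbered 1, except for 2 without replicate 1 labelled 3-day-old or replicate 3 labelled 7-day-old, and were 5 with the intensity trend. Acinar markers lower numbered 2 without 3-day-old replicate 2, and 2 were higher with the intensity trend. In the endocrine, macrophage, adipocyte and liver lists 1 marker each stayed below the 20th percentile in all arrays and was not tested. The part of any of these cell types in the difference of the complement genes was not tested.

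**Figure D4:**
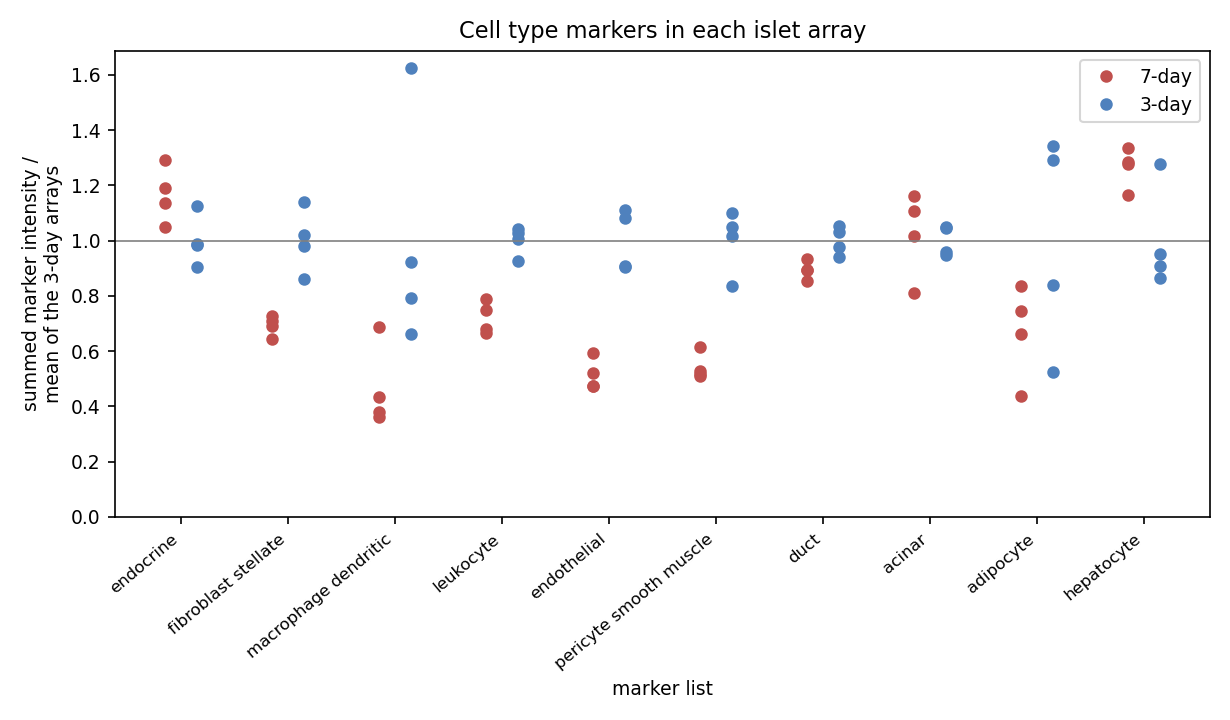
The summed intensity of each cell type marker list in each array, divided by the mean of the 4 arrays labelled 3-day-old (vertical axis, starting at 0), with arrays labelled 7-day-old left of those labelled 3-day-old for each list (horizontal axis). The fibroblast and stellate, leukocyte, endothelial, pericyte and smooth muscle, and duct lists are lower in arrays labelled 7-day-old without overlap.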

How the data were processed

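Total RNA of islets from 4 pigs labelled 7 days old and 4 labelled 3 days old was amplified and hybridised by the authors, with an additional round of amplification where cRNA was low, in samples not named. The authors deposited an intensity on a linear scale for each probe set in each array. The authors scaled them, since the mean after trimming 2% at each end was 500.1 in every array. How probes were summarised is not stated in the sources used here, and the authors' normalization to the median of each probe set is not in the deposited intensities.

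Values under 1 were set to 1 and log2 was taken. Control probe sets were left out, and 21574 of 23999 others passed the low-signal filter of the report (20th percentile, 1 array or more). These were compared with limma 3.58.1 (R 4.3.3) by eBayes on a fit of the 2 labels with no covariates, two-sided, at a Benjamini-Hochberg threshold of 0.05, the methods' unpaired test being an alternative. The 95% intervals are limma's. Exact permutation tests and correlations used Python 3.11.15 with numpy 2.4.6 and scipy 1.17.1. The scripts were tested on simulated data. Symbols came from the platform annotation, where 10069 probe sets carried 1 symbol, 198 several and 13732 none. In gene lists, each gene was taken from its brightest tested probe set.

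The members and lists were chosen with earlier results of these data known. The named genes were every member probe set, up to 4 called genes with the largest difference in each list or up to 2 where none was called, and the 3 genes most correlated with each member. C1QA, C1QC, C8B, C9, CD46, CD59, IL6, IFNGR1, NFKBIA, SAA2, ORM1, TF, INS, GCG, CPA1, CELA2A, ALB, APOA1, DCN, VIM, SPARC, PECAM1, RGS5, NEUROD1, TTR, PTPRC, CD2, CD4, CD3D, CD79B, CORO1A, ADIPOQ, FABP4 and LPL were named outside that rule, after their values were seen. Equal replicate numbers gave no sign of pairing, so no block was used. The pair tests between members were added after the data were seen. No sequences are given, since no sequence table was used here.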

Additional observations from a re-analysis of the deposited data

Results flagged for a closer look

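In C1S, the array of 3-day-old replicate 1 lay apart from the others of its label. Its intensity was 237 and the other 3 were 444 to 478, so that its gap to the nearest was 0.895 of the whole range of the label on the log2 scale, above Dixon's 95% critical value for 4 samples. Chance gives about 1 such flag in 20 groups, and 40 groups of 4 arrays were examined (the 10 member probe sets and 10 marker lists in each label).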

How the results depend on the processing

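The lower values of C3, C1R, CFB (both probe sets) and CFD kept their direction and their call in limma without a filter, with a stricter filter (50th percentile, 4 arrays or more), with an intensity trend and robust variances, after median centring or quantile normalization and with an offset of 16, and by the methods' t-test. With 1 array left out, 4 to 7 member probe sets were lower, 0 were higher, and the calls lost were those of CFD already given. With the replicate number as a block, 0 members and 0 of all probe sets passed limma. In that fit 6 members and 5264 probe sets had an unadjusted p under 0.05, with adjusted p of 0.0576 for C3 to 0.0775 for C1R. The block leaves fewer degrees of freedom. Residuals of equal replicate numbers correlated by -0.0135 to 0.00487, which is no sign of pairing but cannot exclude it. The labels do not say whether equal numbers share a litter or day. C1S passed with the stricter filter (adjusted p = 0.0135), the intensity trend (0.0112) and the offset (0.0379). C5 turned to 0.09 without 7-day-old replicate 4 (adjusted p = 0.766) and ranged from -0.24 to 0.09 with 1 array left out.

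The class medians ranged from -0.97 to -0.85 (C3), -1.40 to -1.16 (classical), -1.18 to -0.97 (alternative) and -1.56 to -0.81 (terminal) with 1 array left out. The classical median was -0.95 with the offset, and the terminal one -0.10 without a filter or with the stricter one, since the probe sets of C7 then both entered or both left. Over all probe sets, 1124 were higher and 1181 lower. The number higher was 1705 with the stricter filter and 1785 with the intensity trend. With 1 array left out it was 420 to 947, and the number lower 561 to 930, with a loss of over 1.5 times in both without 3-day-old replicates 2 or 3 or 7-day-old replicates 1 or 2, and in the number higher without 7-day-old replicate 4. The probe sets of C2 and C7 lie too near background for a size, and their signal limits what can be said.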

Other observations

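Acute phase genes other than complement gave few calls. Of 19 tested, 2 were lower and 1 was higher in arrays labelled 7-day-old, with a median log2 difference of -0.48. The shares over all probe sets tested were 5.47% lower and 5.21% higher. KNG1, kininogen, averaged 145 ± 48.7 in arrays labelled 7-day-old, against 434 ± 97.9 in those labelled 3-day-old (SD, n = 4 each, log2 difference -1.60, adjusted p = 0.0127 from limma). KNG1 is also among the genes that the study lists from these arrays. ITIH3, an inter-alpha-trypsin inhibitor chain, was higher by 1.09 on the log2 scale (adjusted p = 0.0454), and SERPINA3-2 differed by -0.72 (adjusted p = 0.0453). ITIH3 reached the 20th percentile in 4 arrays, all labelled 7-day-old, and did not pass when any 1 array was left out. SERPINA3-2 reached it in 3, all labelled 3-day-old, and did not pass when any array but 3-day-old replicate 4 was left out. Each entered the test only through the label in which it was higher, so neither call is support for a difference. SAA2 and ORM1 had -0.24 (adjusted p = 0.229) and 0.08 (adjusted p = 0.73). TF, the iron carrier transferrin, had 3764 ± 2023 in arrays labelled 7-day-old, against 7400 ± 874 in those labelled 3-day-old (log2 difference -1.11, adjusted p = 0.0792).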
